A study of Mus musculus with 12 samples.

Results

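The 10 genes described here are components and targets of the Notch pathway: the receptors Notch1, Notch2 and Notch3, the ligands Jag1, Jag2 and Dll1, the modulators Lfng and Nrarp, and the target genes Hes1 and Hey1. Each was taken from the probe sets that the platform annotation assigns to that gene alone, 18 of 34945 such probe sets, and was represented by the probe set with the highest mean log2 signal over all 12 arrays, so that 10 of 18193 measured genes are described. The samples were cell fractions of mouse back skin epidermis separated by flow cytometry: 3 arrays of BL LRC and 3 of BL non-LRC cells, 2 arrays of SL LRC and 2 of SL non-LRC cells, and 2 of GL cells. From knowledge of the study, BL is taken as the basal, SL as the spinous and GL as the granular layer, and LRC as a label-retaining cell. All groups came from mice with the same 4 transgenes. K5-tTA expresses a transactivator from the keratin 5 promoter, pTRE-H2B-GFP is the GFP-tagged histone that it switches on, K14-CreER is a tamoxifen-activated recombinase under the keratin 14 promoter, and Rosa-tdTomato is its reporter. All mice, with no untreated group among these arrays, were fed doxycycline (1 g/kg in the food, for 2 weeks), which shuts the histone label off so that dividing cells dilute it, and received a single tamoxifen injection of 75 mg/kg. They were killed 1 week after it at the second telogen, a resting phase of the hair cycle. The labels give no age in weeks, no sorting gates and no word on whether a sample is 1 animal or a pool, so a p-value covers the spread among these arrays, which may be technical.

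Notch receptors are activated when a Jagged or Delta-like ligand on a neighbouring cell binds them, which lets proteases release the intracellular domain. That domain enters the nucleus, joins the DNA-binding protein RBPJ and switches on targets such as Hes and Hey repressors and Nrarp. In mouse epidermis the pathway is known for promoting the step from basal to spinous keratinocyte, with ligands and receptors present in different layers.

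Signal is given in the linear intensity units of the deposited values, and each probe set has its own response, so levels are compared between samples and not between genes. All members lay above the array's background floor, 22.4 to 42.6 units, on every array, with the exception of Hey1. Between 68.1% and 78.4% of genes were above the floor on an array. The signal of BioB, a bacterial control added to every hybridisation, averaged 495 ± 29.5 units on 4 arrays (SD; replicate 1 of BL LRC, replicate 1 of BL non-LRC and both replicates of SL non-LRC) and 3370 ± 305 units on the other 8 (SD). These array sets split both BL groups alike but coincide with LRC and non-LRC in SL, where array set and label cannot be told apart. A term for the array set is therefore estimated from the BL arrays alone, as replicate 1 against the other replicates. It carries that BL difference over to SL and GL, and whether it holds there was not tested. Eif2s3y, Uty and Kdm5d, all Y-linked, were above the floor on 10 arrays, and none of the 3 on the replicate 1 arrays of both BL groups. The 3' minus 5' difference of the Actb control, which reflects RNA integrity, lay between -0.33 and -0.04 log2 units, and that of Gapdh between 0.68 and 1.22, with GL 2 lowest and GL 1 highest.

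The labelled layers were checked against markers. Of 6 granular markers, 5 were called higher in GL than in BL and 1, Tgm3, lower, and Flg was above the floor on no BL array. Of 8 basal markers, 5 were called lower in SL than in BL and none higher. In GL against SL, 2 granular markers (Klk7 and Lor) were called higher and Tgm3 lower. Of the basal markers 5 were called lower there and 1, Cdh3, higher. Of 6 spinous markers, 3 (Dsc1, Sbsn and Dsg1a) were called higher in SL than in BL, and 0 were called in GL against SL. The GL arrays also held signal from markers of other cells. The 7 Langerhans and myeloid markers summed to 1194 to 2991 units in BL, 1071 to 8113 in SL and 26054 to 55796 in GL, and 6 of 7 were called higher in GL than in either layer. The 4 T cell markers summed to 3772 to 7772 units in BL, 2056 to 4231 in SL and 7325 to 23087 in GL, 3 of 4 called higher in GL than in either layer. The 7 melanocyte markers summed to 333 to 548 units in BL, 338 to 794 in SL and 1738 to 2643 in GL. The 8 hair follicle and sebaceous markers summed to 7034 to 46474 units in BL, 20951 to 57461 in SL and 46585 to 50037 in GL. Of these 8, 6 were called higher in SL than in BL, and 7 higher (Lhx2, Sox9, Krt79, Krt25, Krt71, Krt27 and Mgst1) and 1 lower (Scd1) in GL than in BL. In GL against SL 3 were called higher and 1 lower. Endothelial and fibroblast markers were called in no comparison, the endothelial sums being 58.4 to 236 units. The part of these cells in the results below was not tested, and in such bulk samples fewer cells of a type and less RNA per cell cannot be told apart.

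**Figure D1:**
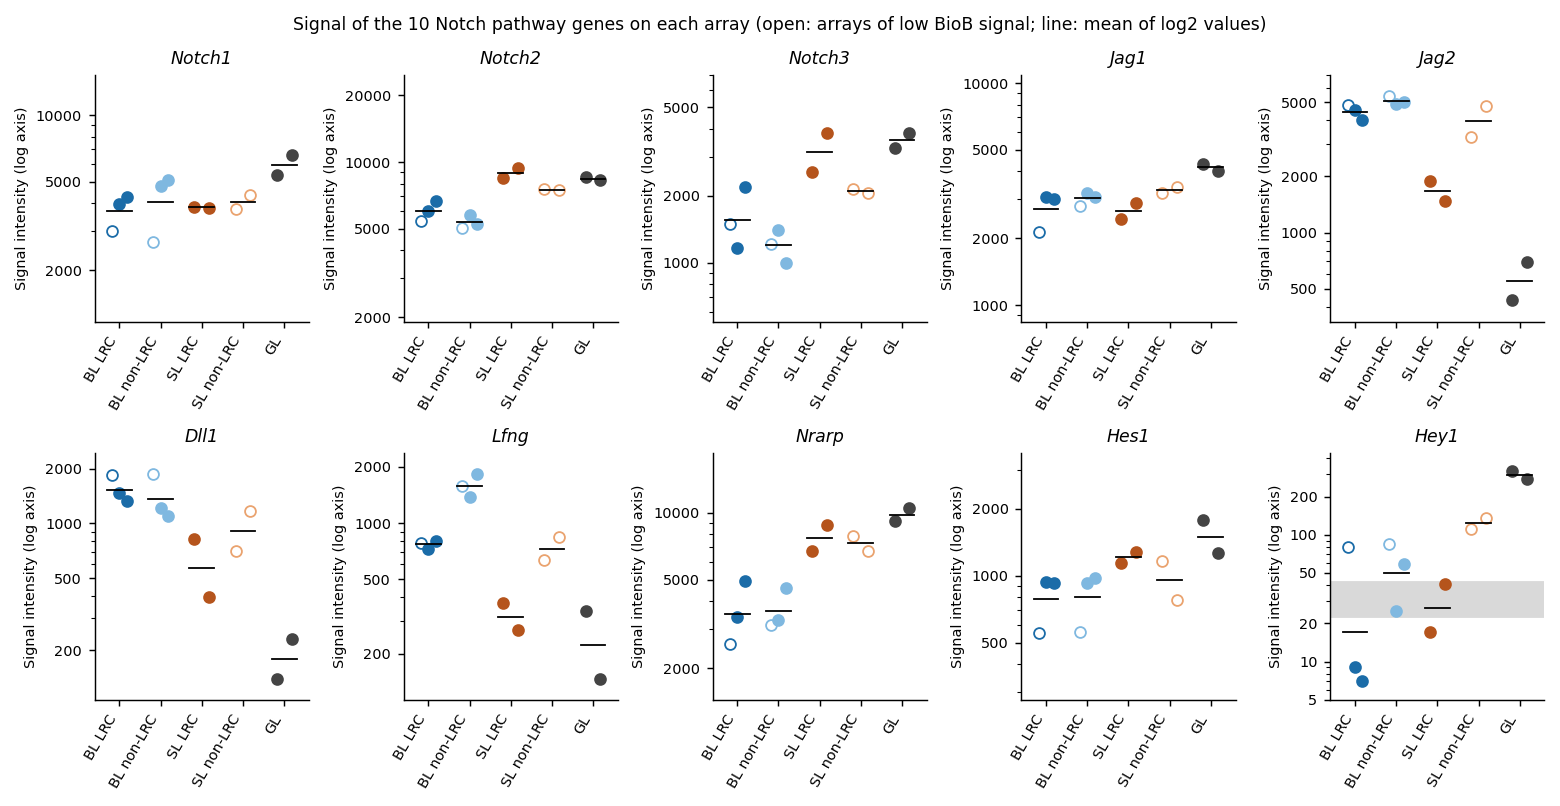
Signal intensity (log axis) of the 10 Notch genes on each of the 12 arrays, by sorted group. Points are arrays, lines are means of log2 values, open points are the 4 arrays of low BioB signal, and the grey band for Hey1 spans the background floors. Jag2, Dll1 and Lfng average lowest in GL, and Notch3 and Nrarp average higher in SL and GL than in BL.

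Across the layers, the ligands Jag2 and Dll1 and the glycosyltransferase Lfng fell, while Notch2, Notch3 and the feedback gene Nrarp rose. In SL against BL 6 of the 10 genes were called at an adjusted p under 0.05, Notch2, Notch3 and Nrarp higher and Jag2, Dll1 and Lfng lower, where 5.03% of all genes were called (2.83% higher and 2.2% lower). In GL against SL 3 of 10 were called, all lower, where 8.3% of all genes were called (4.39% higher and 3.91% lower). In GL against BL 9 of 10 were called, 6 higher and 3 lower, where 17.1% of all genes were called (8.66% higher and 8.41% lower). The last comparison shares its arrays with the other two. These counts are no test of the 10 genes as a set, since the members were chosen with earlier results of these data known. All members but Hey1 were above the floor on every array, as were 10371 of all 18193 genes, so the shares are not like for like. Array ranges in SL lay wholly above those in BL for Notch2 and Nrarp (2.13% of all genes) and wholly below for none of the 10 (2%). Those in GL lay above SL for Notch1, Jag1, Nrarp and Hey1 (13% of all genes) and below for Jag2 and Dll1 (12.9%). Against BL, GL lay above for all but Jag2, Dll1 and Lfng (13.6% of all genes), and below for these 3 (13.3%).

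Among the receptors, Notch2 and Notch3 were higher outside the basal layer. Notch2 had 5034, 5600 and 6645 units in BL (lowest, median and highest of 6 arrays), 8458 and 9405 in SL LRC, 7543 and 7455 in SL non-LRC, and 8537 and 8275 in GL. Every SL and GL array exceeded every BL array, and SL and GL values were interleaved. Notch2 rose by 0.53 ± 0.099 log2 units in SL over BL (SE, adjusted p = 0.00349) and by 0.57 ± 0.13 in GL over BL (adjusted p = 0.00394, and 0.0603 without GL 1), with 0.04 ± 0.13 between GL and SL (adjusted p = 0.919).

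Notch3, a further receptor of the family, had 997, 1315 and 2190 units in BL (lowest, median and highest), 2572 and 3831 in SL LRC, 2145 and 2054 in SL non-LRC, and 3301 and 3830.1 in GL. One BL array, BL LRC 3 at 2190, lay above both SL non-LRC arrays, and all other BL arrays lay below every SL array. Notch3 rose by 0.91 ± 0.18 log2 units in SL over BL (adjusted p = 0.0046) and by 1.38 ± 0.22 in GL over BL (adjusted p = 0.000297), and GL minus SL was 0.47 ± 0.24 (adjusted p = 0.278).

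Notch1, the receptor whose loss in mouse epidermis disturbs differentiation, had 2695, 4130.3 and 5125 units in BL, 3853 and 3828 in SL LRC, 3785 and 4348 in SL non-LRC, and 5354 and 6634 in GL. Both GL arrays were above all 10 others, while SL lay within the BL range, whose lowest values were those of the replicate 1 arrays. The difference was 0.03 ± 0.17 log2 units for SL minus BL (adjusted p = 0.969), 0.59 ± 0.22 for GL minus SL (adjusted p = 0.125) and 0.62 ± 0.21 for GL minus BL (adjusted p = 0.053). With the replicate number as a block, the GL differences passed the threshold (adjusted p = 0.0355 against SL and 0.00447 against BL). That block ties equal numbers across the layers, and whether those arrays belong together was not tested. The replicate 1 arrays of BL lacked the Y-linked signal that GL 1 had. Against SL the Notch1 difference also passed on the arrays of high BioB signal (0.026) and with only the groups compared (0.0262). Against BL it also passed with probe sets averaged (0.015), for the second probe set (0.00525) and with low-signal genes filtered out (0.0478). Of 12 fits that left out 1 array, 1 passed against SL and 2 against BL. No other setting made the call, including no mean-variance trend (0.33 against SL and 0.204 against BL).

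The ligands did not move as a group: Jag2 and Dll1 fell towards GL and Jag1 did not. Jag2, a ligand known from the basal layer, had 4035, 4870 and 5425 units in BL (lowest, median and highest), 1902 and 1471 in SL LRC, 3273 and 4771 in SL non-LRC, and 432 and 691 in GL. SL non-LRC 2 alone of the SL arrays lay inside the BL range, and both GL arrays were below every other array. Jag2 fell by 0.89 ± 0.15 log2 units in SL against BL (adjusted p = 0.00172), fell by 2.23 ± 0.21 in GL against SL (adjusted p = 5.53e-06) and fell by 3.13 ± 0.19 in GL against BL (adjusted p = 1.44e-08).

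Dll1, a Delta-like ligand with 1 probe set on the array, had 1097, 1396 and 1881 units in BL, 823 and 393 in SL LRC, 701 and 1164 in SL non-LRC, and 139 and 232 in GL. The SL and BL ranges met only at SL non-LRC 2, which exceeded 1 BL array, and both GL arrays were below all others. Dll1 fell by 1.01 ± 0.25 log2 units in SL against BL (adjusted p = 0.0218), fell by 2.00 ± 0.33 in GL against SL (adjusted p = 0.000959) and fell by 3.01 ± 0.31 in GL against BL (adjusted p = 3e-06). The SL call did not hold in 4 of the 12 fits that each left out 1 array, namely replicate 1 of either BL group, SL LRC 2 or the first SL non-LRC array (highest adjusted p = 0.146).

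Jag1, a ligand that is also a Notch target, had 2127, 3036 and 3206 units in BL, 2429 and 2883 in SL LRC, 3191 and 3391 in SL non-LRC, and 4326 and 4035 in GL. The BL and SL ranges overlapped, and both GL arrays were higher than the other 10. Jag1 rose by 0.55 ± 0.16 log2 units in GL over BL (adjusted p = 0.0256), a call not made when either GL array was left out (highest adjusted p = 0.202), under median centring (0.0788), on the arrays of high BioB signal (0.061) or with no mean-variance trend (0.116). GL minus SL was 0.50 ± 0.17 (adjusted p = 0.0858) and SL minus BL 0.05 ± 0.13 (adjusted p = 0.92).

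The modulators moved in opposite directions. Lfng encodes Lunatic fringe, which adds sugars to the receptors and changes which ligands they answer, and Nrarp encodes a small ankyrin-repeat protein that is induced by Notch and limits it. Lfng had 729, 1090.3 and 1827 units in BL (lowest, median and highest), 373 and 267 in SL LRC, 634 and 842 in SL non-LRC, and 339 and 147 in GL. The BL values formed a lower LRC and a higher non-LRC group, the SL non-LRC arrays overlapped the BL LRC arrays, and GL 1 lay within the SL LRC range.

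Lfng fell by 1.20 ± 0.22 log2 units in SL against BL (adjusted p = 0.00323), fell by 1.10 ± 0.30 in GL against SL (adjusted p = 0.0301) and fell by 2.31 ± 0.28 in GL against BL (adjusted p = 1.77e-05). The GL against SL call was lost without SL LRC 1, SL non-LRC 2 or GL 2 (-0.50 log2 units without the last, adjusted p = 0.441), with the array set as a term (0.0679), with only the groups compared (0.107) and with no mean-variance trend (0.117). It was also not made for the second probe set (adjusted p = 0.103) or on the arrays of high BioB signal, where SL is SL LRC alone (-0.50 log2 units, adjusted p = 0.523). Nrarp had 2559, 3354 and 4942 units in BL, 6710 and 8792 in SL LRC, 7908 and 6736 in SL non-LRC, and 9164 and 10485 in GL. The 3 layers did not overlap for Nrarp, with GL above SL and SL above BL on every array.

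Nrarp rose by 1.07 ± 0.17 log2 units in SL over BL (adjusted p = 0.000771) and by 1.46 ± 0.21 in GL over BL (adjusted p = 0.0001). GL minus SL was 0.39 ± 0.22 (adjusted p = 0.359).

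The stretches of sequence before these 2 genes are shown. Both genes moved with layer, in opposite directions, but so did other members. RefSeq windows (GRCm38.p6) matched 8 of the 10 members, Hes1 and Hey1 having none in the table, and their first 250 bases, which precede a transcript start, were searched on both strands for the RBPJ core GTGGGAA, the E-box CACGTG that Hes and Hey relatives can bind, and the N-box CACNAG. These letters are in 5.42%, 6.02% and 36.7% of all 32851 such windows. Nrarp lies on chromosome 2 from 25180758 to 25183339 and Lfng on chromosome 5 from 140607341 to 140615545, both on the plus strand, and capitals mark the RBPJ core or E-box letters in the windows chr2:25180508-25180757 and chr5:140607091-140607340.
Nrarp: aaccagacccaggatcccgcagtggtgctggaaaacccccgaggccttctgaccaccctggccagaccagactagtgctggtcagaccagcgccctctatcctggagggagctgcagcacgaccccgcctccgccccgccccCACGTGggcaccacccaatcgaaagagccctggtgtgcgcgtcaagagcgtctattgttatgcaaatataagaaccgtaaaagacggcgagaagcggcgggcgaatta
Lfng: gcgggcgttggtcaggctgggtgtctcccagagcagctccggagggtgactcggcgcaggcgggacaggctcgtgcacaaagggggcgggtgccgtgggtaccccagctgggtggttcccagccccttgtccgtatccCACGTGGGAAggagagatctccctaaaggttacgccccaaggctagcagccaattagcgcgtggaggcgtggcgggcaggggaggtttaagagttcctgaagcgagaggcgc
In the Lfng window the E-box letters from base -112 to -107, counted back from the gene start, overlap the RBPJ core letters from -109 to -103, and in the Nrarp window the E-box letters stand from -108 to -103. Neither the RBPJ core nor the E-box was found in the windows of Notch1, Notch2, Notch3, Jag1 and Dll1. Of the windows described, the 2 shown are thus the ones that held these letters. N-box letters, which are not marked, were in the windows of Nrarp, Lfng, Notch1, Notch2 and Notch3, and not in those of Jag1 and Dll1. The Jag2 window lies inside the annotated gene and is not described here. A match describes letters and not a bound site.

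Both target genes had their highest group mean in GL. Hes1, a repressor and common Notch target, had 555, 929 and 982 units in BL (lowest, median and highest), 1146 and 1276 in SL LRC, 1165 and 780.2 in SL non-LRC, and 1778 and 1266 in GL. SL non-LRC 2 was the only SL array inside the BL range, GL 2 was within the SL range, and the 2 lowest values were again those of the BL replicate 1 arrays. Hes1 rose by 0.92 ± 0.27 log2 units in GL over BL (adjusted p = 0.0246), a call lost without GL 1 (adjusted p = 0.306). SL minus BL was 0.44 ± 0.21 (adjusted p = 0.329) and GL minus SL 0.48 ± 0.29 (adjusted p = 0.375).

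Hey1, a related repressor, was near the background in much of the tissue. It had 80.2, 9.13 and 6.99 units on the BL LRC arrays, 85.3, 24.9 and 58.8 in BL non-LRC, 17.1 and 41.0 in SL LRC, 111 and 136 in SL non-LRC, and 316 and 277 in GL. It was above the floor on 1 of 3 BL LRC, 2 of 3 BL non-LRC, 1 of 2 SL LRC and both arrays of each of the other groups, and both GL arrays exceeded the rest. The fitted rise was 3.33 ± 0.83 log2 units in GL over BL (adjusted p = 0.00907), a size that rests partly on BL values under the floor and a call not made when either GL array was left out (highest adjusted p = 0.102). GL minus SL was 2.37 ± 0.88 (adjusted p = 0.117) and SL minus BL 0.96 ± 0.65 (adjusted p = 0.558). With 32 added to each value before the log, GL minus SL was 1.77 log2 units and was called (adjusted p = 0.0199). It was also called on the arrays of high BioB signal (0.0233), with only the groups compared (0.0222) and with the array set as a term (0.0125). Of 12 fits that left out 1 array, 1 made the call, and no other setting did.

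**Figure D2:**
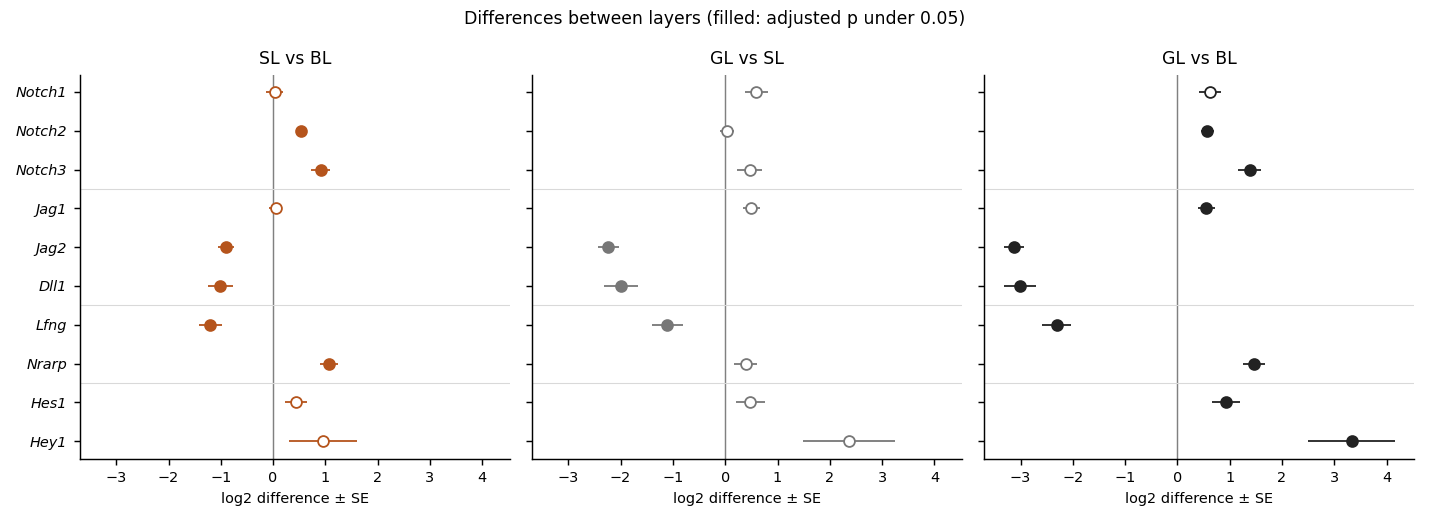
Log2 differences (points, ± SE) of the 10 genes in SL vs BL, GL vs SL and GL vs BL, ordered by role, with filled points for an adjusted p under 0.05. Jag2, Dll1 and Lfng lie left of 0 in all 3 panels, down to -3.13 for Jag2, and Hey1 has the widest error bars.

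The number of SL against BL calls changed with the model. Without a mean-variance trend in the moderation 0 of the 6 passed, with adjusted p between 0.0502 and 0.149. Within LRC these 6 were called (2.81% of all genes; 1.41% higher and 1.41% lower), with 4 genes wholly above (14.3%) and 3 wholly below (15.5%). Within non-LRC Nrarp alone was called by the chosen probe sets (1.01 ± 0.24, adjusted p = 0.0396), where 1.56% of all genes were called (1.17% higher and 0.39% lower). There 4 genes lay wholly above (14.6%) and 2 wholly below (12.2%). Jag2 differed by -1.42 log2 units within LRC and -0.37 within non-LRC, a contrast that is the interaction tested below for LRC and non-LRC cells. Jag2's second probe set differed by -0.95 ± 0.22 within LRC and -1.04 ± 0.22 within non-LRC (adjusted p = 0.0246 over all probe sets). Within non-LRC that of Notch3 also passed (1.44 ± 0.28, adjusted p = 0.0155), and those of Notch2 (adjusted p = 0.189) and Lfng (0.878) did not. Within each array set, a comparison chosen after seeing the data and made without a test, the 6 kept their direction. Nrarp differed by 0.94 log2 units over the arrays of high BioB signal and 1.37 over those of low, Lfng by -1.80 and -0.61, and Jag2 by -1.46 and -0.38. Layer and label are mixed in these values, since SL LRC alone in the high set, and SL non-LRC alone in the low set, stood against both BL groups together. With the array set as a term all 6 stayed past the threshold. That term is estimated from the BL arrays alone and cannot separate array set from label in SL. Without GL 1 the GL against BL count was 5 of 10, Notch3, Nrarp, Jag2, Dll1 and Lfng, where 1652 of all 18193 genes were called, against 3106 with it.

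Between LRC and non-LRC cells 1 of these genes passed the test, Jag2 in SL, and Lfng came close to the threshold in both layers. In BL LRC against BL non-LRC 0 of 10 genes were called by limma at an adjusted p under 0.05, where 1.53% of all genes were called (0.308% higher and 1.23% lower), and 1 of the 10, Lfng, had an unadjusted p under 0.05. Lfng had 785, 729 and 800.1 units in BL LRC, against 1581, 1380.4 and 1827 in BL non-LRC. Every BL LRC array lay below every BL non-LRC array (-1.04 ± 0.28 log2 units, unadjusted p = 0.00187, adjusted p = 0.0867). Lfng's second probe set differed by -0.86 ± 0.40 (adjusted p = 0.424 over all probe sets). It overlapped, with BL LRC 1 at 1000 units above BL non-LRC 2 at 909 and BL non-LRC 3 at 868. Lfng was called here when GL 1 or GL 2 was left out, when only the BL arrays were fitted, and under median centring (lowest adjusted p = 0.0119), and the difference was -1.06 over the arrays of high BioB signal and -1.01 between the 2 of low. Jag2 was also lower without overlap in BL, at 4869, 4527 and 4035 units in BL LRC, against 5425, 4871 and 5024 in BL non-LRC (-0.19 ± 0.19, adjusted p = 0.785). Jag2's second probe set overlapped, with BL LRC 2 at 3720 units above BL non-LRC 1 at 3056. By the chosen probe sets, LRC arrays lay lower without overlap for 2 of the 10 genes, and for 7.67% of all genes. They lay higher without overlap for 0 of the 10, and for 8.76% of all genes.

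In SL, Jag2 was lower in LRCs. It had 1902 and 1471 units in SL LRC, against 3273 and 4771 in SL non-LRC, a difference of -1.24 ± 0.24 log2 units (adjusted p = 0.00617). It was the 1 called gene of the 10, where 4.19% of all genes were called (1.49% higher and 2.7% lower). The call did not hold without SL LRC 2 or SL non-LRC 2 (highest adjusted p = 0.128), nor with the array set as a term (-1.08 log2 units, adjusted p = 0.0951). That term, estimated from the BL arrays alone, cannot separate array set from label in SL. Jag2's second probe set differed by -0.12 ± 0.24 (adjusted p = 0.873). It read 1527 and 1513 units in SL LRC, against 1542 and 1769 in SL non-LRC, so the probe sets of this gene gave different sizes. With a gene's probe sets averaged, Jag2 was not called (-0.68 log2 units, adjusted p = 0.0805) and Lfng was (-1.83, adjusted p = 0.0123).

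Lfng had 373 and 267 units in SL LRC, against 634 and 842 in SL non-LRC, without overlap. The difference was -1.21 ± 0.34 log2 units (adjusted p = 0.0591, and 0.0469 with the replicate number as a block). Its second probe set, with 256 and 88.8 units in SL LRC and 651 and 1038 in SL non-LRC, differed by -2.45 ± 0.49 (adjusted p = 0.00903 over all probe sets). Notch3 had 2572 and 3831 units in SL LRC, against 2145 and 2054 in SL non-LRC (0.58 ± 0.27, adjusted p = 0.295). Hey1 was lower in SL LRC by a fitted -2.22 ± 1.01 (adjusted p = 0.276), with 1 SL LRC array under the floor.

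In SL the arrays did not overlap for Notch2 and Notch3, higher in LRC (23.4% of all genes), and for Jag1, Jag2, Lfng and Hey1, lower in LRC (24.2%). The remaining genes differed between LRC and non-LRC by between -0.67 ± 0.38 (Dll1, adjusted p = 0.413) and 0.34 ± 0.33 log2 units (Hes1, adjusted p = 0.684) in SL. In BL Notch3 differed by 0.38 ± 0.22 (adjusted p = 0.576) and Hey1 by -1.54 ± 0.83 (adjusted p = 0.528), and the others by between -0.16 and 0.17. Nrarp, which separated the layers on every array, differed by -0.04 ± 0.21 in BL (adjusted p = 0.968) and 0.07 ± 0.26 in SL (adjusted p = 0.938). A p above the threshold does not show equal levels. The hair follicle and sebaceous markers moved with the label too. In BL LRC they summed to 7034 to 9768 units, against 20323 to 46474 in BL non-LRC, with 4 of 8 called lower. In SL LRC they summed to 20951 to 23161 units, against 46412 to 57461 in SL non-LRC, again with 4 of 8 called lower. Also lower in SL LRC were 3 of 7 Langerhans and myeloid markers, Csf1r, H2-Aa and Cd74 (sums of 1071 to 1511 units, against 3328 to 8113 in SL non-LRC), and 2 of 7 melanocyte markers, Tyrp1 and Dct (338 to 361, against 733 to 794). Of 6 spinous markers, Krt1, Dsg1a and Krt10 were higher in SL LRC, and Dsg1a and Krt10 in BL LRC. The part of these shifts in the Lfng and Jag2 values was not tested.

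Whether the LRC difference itself differed between the layers was tested as an interaction, the SL difference minus the BL difference. By limma 0 of the 10 genes and 0 of all 18193 genes (0%) were called, with 1291 genes at an unadjusted p under 0.05, and none of the 10 was called under any setting tried. Over all genes 2 were called when a gene's probe sets were averaged, 5 with the array set as a term, 4 with the replicate block, 2 with no mean-variance trend, and 0 to 6 when an array was left out. By the chosen probe sets, the most different member was Jag2 at -1.05 ± 0.31 log2 units (unadjusted p = 0.00339, adjusted p = 0.522). Lfng differed by -0.17 ± 0.45 (adjusted p = 0.969). The second probe sets gave 0.09 ± 0.31 for Jag2 (adjusted p = 0.979 over all probe sets) and -1.59 ± 0.63 for Lfng (unadjusted p = 0.0232, adjusted p = 0.676).

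**Figure D3:**
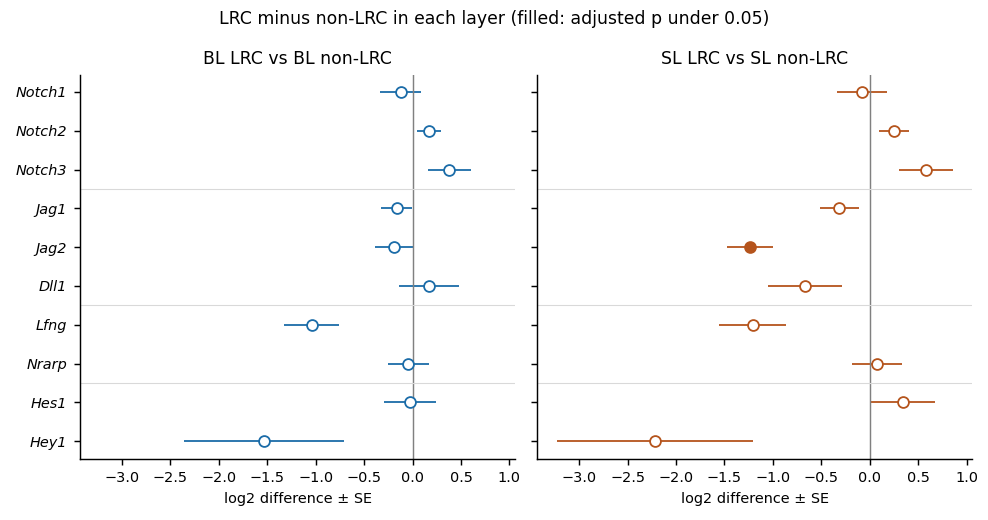
LRC minus non-LRC log2 differences (points, ± SE) of the 10 genes in BL and in SL, with filled points for an adjusted p under 0.05. Jag2 in SL, at -1.24, is the only filled point, and Lfng lies at -1.04 in BL and -1.21 in SL.

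For 7 of the 10 genes the array carries further probe sets, 8 in all, which read other parts of the transcript. In GL against BL all 8 had the sign of the chosen probe set. Those of Nrarp (1.82 ± 0.20), Notch2 (0.95 ± 0.18), Notch3 (1.66 ± 0.25), Jag2 (-2.24 ± 0.20) and Lfng (-2.32 ± 0.40) passed the threshold over all probe sets, with Notch2's second probe set at 1631 ± 26.0 units in GL and 773 to 932 as BL group means. Notch1's second probe set passed as well, at 0.68 ± 0.15 (adjusted p = 0.00525), where the chosen one missed it. Jag1's other probe sets were at 0.58 ± 0.25 (adjusted p = 0.147) and 0.42 ± 0.16 (adjusted p = 0.0796). In SL against BL those of Nrarp, Notch3, Jag2 and Notch2 also passed, and Lfng's was at -1.10 ± 0.32 (adjusted p = 0.0682). Signs were split within Jag1 for SL against BL, and within Jag1, Notch1 and Nrarp for SL LRC against SL non-LRC, none of these values being past the threshold.

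**Figure D4:**
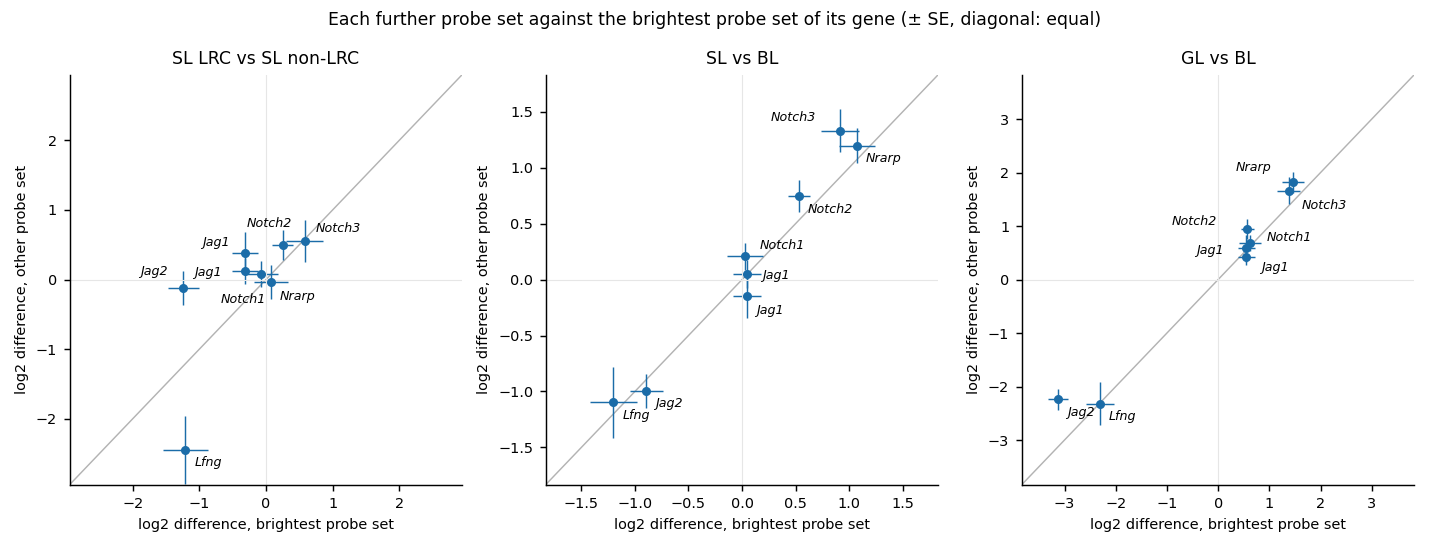
Log2 difference of each further probe set (vertical axis, ± SE) against that of the brightest probe set of the same gene (horizontal axis, ± SE), in 3 comparisons; the diagonal marks equal values. In SL LRC vs SL non-LRC Jag2 lies at -1.24 and -0.12 and Lfng at -1.21 and -2.45, whereas in both layer comparisons most points lie near the diagonal.

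By the mean of log2 values over the 5 groups, Jag2 and Lfng were highest in BL non-LRC, with BL LRC next, after it the SL non-LRC and then the SL LRC arrays, and GL last. For Jag2 the neighbours BL LRC and SL non-LRC overlapped in their array values, and for Lfng so did BL LRC with SL non-LRC and SL LRC with GL. By Lfng's second probe set SL non-LRC (mean log2 9.68) came before BL LRC (9.13), and SL LRC and GL both stood at 7.24. Dll1 was highest in BL LRC, followed by BL non-LRC, by the SL non-LRC and then the SL LRC arrays, and by GL, where GL alone was free of overlap with its neighbour. Nrarp and Notch3 ran from GL over SL LRC and SL non-LRC to the BL groups. For Nrarp the SL groups overlapped each other, as did the BL groups, and for Notch3 only SL LRC and SL non-LRC were neighbours without overlap. Notch1, Jag1 and Hey1 were highest in GL, without overlap with SL non-LRC, which came next. Notch2 was highest in SL LRC, which overlapped GL, and for Hes1, highest in GL, all neighbours overlapped.

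Of the other genes of the pathway, 57 were listed and 52 measured, 37 of them above the floor on every array. In GL against BL 6 were called higher and 3 lower, with a median difference of 0.28 log2 units, against -0.02 over all genes, so that 9 of 52 were called, a share near the 17.1% of all genes (8.66% higher and 8.41% lower). Cdkn1a, a cell-cycle inhibitor induced by Notch1 in mouse keratinocytes, was higher in GL at 6088 ± 115 units (SD, n = 2), against 3332 ± 421 in BL LRC cells and 2566 ± 329 in those of BL non-LRC (SD, n = 3 each; 1.07 ± 0.16 log2 units, SE, adjusted p = 0.000139). Cdkn1a averaged higher in SL than in GL, at 8217 ± 249 units in SL LRC and 6667 ± 1639 in SL non-LRC (SD, n = 2 each). It was not called in GL against SL. Heyl, a relative of Hey1, was above the floor on both GL arrays, at 250.3 ± 18.8 units, and on 1 of 6 BL arrays (adjusted p = 0.000641). The ubiquitin ligase genes Neurl3 (3.39 ± 0.79, above the floor on 5 of 6 BL arrays), Dtx1 (2.47 ± 0.72, on 2 of 6) and Dtx3 (1.34 ± 0.41), and the acetyltransferase Kat2b (1.16 ± 0.33), were also higher.

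Dlk2, a non-canonical ligand, fell with layer. It had 1815 ± 548 units in BL LRC cells and 1526 ± 356 in BL non-LRC (SD, n = 3 each), 660.4 ± 86.3 in SL LRC, 993 ± 191 in SL non-LRC and 318 ± 34.4 in GL (SD, n = 2 each). It fell by 2.35 ± 0.25 log2 units in GL against BL (adjusted p = 3.35e-06). Myc, a growth regulator and Notch target in T cells, fell by 0.97 ± 0.18 and Dtx3l fell by 0.83 ± 0.22. In SL against BL the list had 1 gene higher, Cdkn1a (1.34 ± 0.13, adjusted p = 7.56e-06), and 1 lower, Dlk2 (-1.01 ± 0.19, adjusted p = 0.00412), with a median of 0.03. These 2 of 52 stand against 5.03% of all genes, whose median was 0.0025.

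In GL against SL 2 were higher and 2 lower, Dlk2 and Myc, with a median of 0.10, against -0.03 over all genes. These 4 of 52 stand against 8.3% of all genes called. Heyl was higher in GL (3.19 ± 0.74, adjusted p = 0.0124), with 2 of 4 SL arrays above the floor, and Hes7, another relative of Hes1, was at least 1.50-fold higher (adjusted p = 0.032), being above the floor on both GL and on 0 of 4 SL arrays. Rbpj, the DNA-binding partner of all Notch receptors, differed by -0.01 ± 0.22 in GL against BL (adjusted p = 0.991), and Adam10, the protease that makes the first activating cut, by 0.11 ± 0.14 (adjusted p = 0.686). Neither is among the genes called, and they were named after their values were seen.

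Between LRC and non-LRC cells, Neurl1b, a neuralized-type ubiquitin ligase related to those that act on Notch ligands, was lower in LRCs of both layers. In BL it had 501 ± 129 units in LRC, against 1401 ± 69.9 in non-LRC (SD, n = 3 each; -1.51 ± 0.24 log2 units, adjusted p = 0.00229), the 1 call among the 52, where 1.53% of all genes were called. In SL it had 283 ± 106 units in LRC, against 1413 ± 59.1 in non-LRC (SD, n = 2 each; -2.37 ± 0.29, adjusted p = 0.00024). Dtx4 (-2.01 ± 0.43, adjusted p = 0.0116) and the receptor-processing protease Furin (-0.96 ± 0.26, adjusted p = 0.0428) were lower in SL LRC as well, and the gamma-secretase subunit Aph1b was higher (1.57 ± 0.43, adjusted p = 0.0472), so that 4 of 52 were called in SL, where 4.19% of all genes were. The median of the list was -0.0021 in BL, against 0.05 over all genes, and 0.07 in SL, against -0.0013 over all genes.

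**Figure D5:**
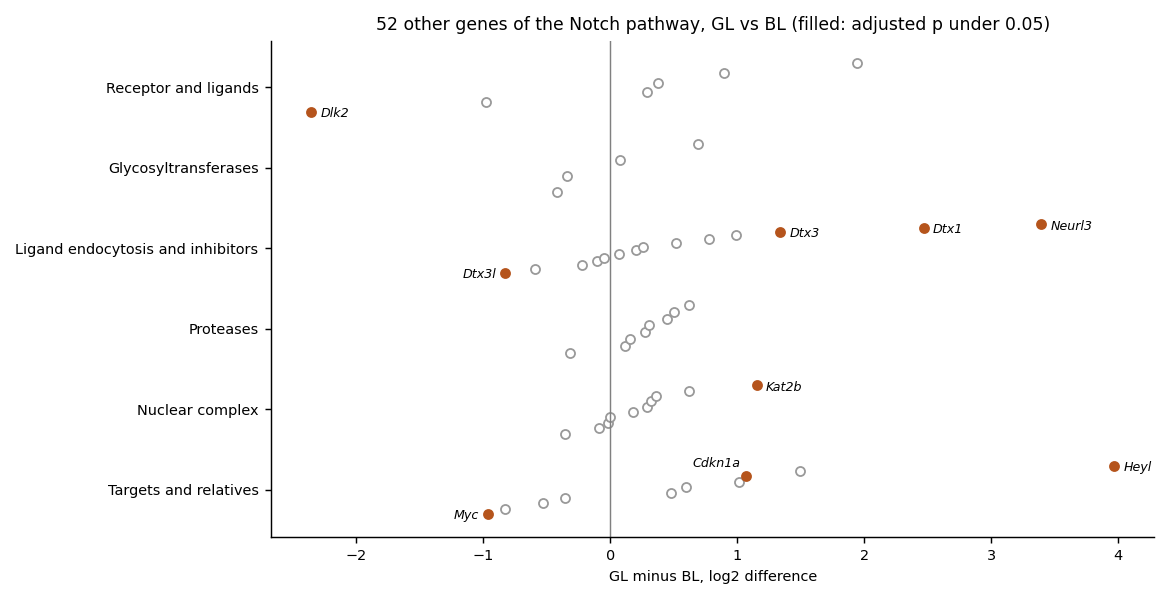
GL minus BL log2 difference of the 52 other measured pathway genes by class, each point 1 gene, filled where the adjusted p is under 0.05. The called genes run from Dlk2 at -2.35 to Heyl at 3.97, and no glycosyltransferase or protease was called.

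Profiles most like those of the members were sought over the 5 group means, each centred on its own mean, among 10371 genes above the floor on every array. The measure was the root mean square log2 distance, for 1 member per role with the smallest F-test p. Nearest to Notch3 were Il22ra1 (0.075), Pcdhb17 (0.0879) and Itgb5 (0.0949), and nearest to Jag2 were Mthfd1 (0.191), Ifitm3 (0.203) and Abcc3 (0.206). Nearest to Lfng were Ect2 (0.141), Cdk1 (0.159) and Dnah11 (0.172), and nearest to Hey1 were Farp1 (0.135), Sox9 (0.236) and Timp2 (0.296). For scale, the group means of these 4 members span 1.57, 3.22, 2.83 and 4.10 log2 units in that order. The Hey1 profile and its span rest in part on arrays under the floor.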

How the data were processed

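RNA from 5 sorted cell fractions was amplified (NuGEN Ovation Pico WTA, 5 ng of RNA, per the labels' protocols) and hybridised to 12 Affymetrix mouse arrays. The deposited values are linear signal intensity per probe set. Their trimmed mean was 500.0 on every array (2% trimmed from each end, computed from the files); how the authors summarised and scaled them is not stated in the labels. Values were log2-transformed without a pseudocount, and the lowest deposited intensity was 1. Of 45101 probe sets, 64 controls were left out, and 34945 carry 1 gene symbol, 932 several and 9160 none. Each of 18193 genes was represented by its brightest single-gene probe set. limma 3.58.1 in R 4.3.3 fitted 5 group means over all 12 arrays (lmFit, eBayes with a mean-variance trend), and layer contrasts averaged the LRC and non-LRC means equally. P-values are two-sided and adjusted by Benjamini-Hochberg over all 18193 genes, with a threshold of 0.05. The background floor of an array is the 95th percentile of its 27 bacterial probe sets. The fit was tested on simulated data with known differences and independent noise. The simulation held no array set or replicate effects, so it does not cover them, and no result here rests on it.

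The named genes were the 10 members, the pathway genes past the threshold, and the 3 nearest profiles for 1 member per role. The members and lists were chosen with earlier results of these data known. Within BL, arrays of the same replicate number deviated together (r = 0.317, 0.199 and 0.178 over 10371 genes), and in SL r was 0.0372 with 2 pairs. GL was not checked in this way. The main fit took no pairs, and the replicate number entered only in the block setting. Array number limits the precision, with 2 or 3 arrays per group. Other normalizations, probe set rules, filters, array sets, the replicate block and leaving out each array were tried.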

Additional observations from a re-analysis of the deposited data

How the results depend on the processing

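Of 463 values recomputed for the called differences, 415 kept direction and call and 48 lost the call. Of 965 for the others, 874 were the same, 28 gained a call and 63 changed sign. Some differences could not move. Leaving out an array of a group outside a contrast keeps the difference as it was, and only its p-value can change. The rule that drops _x_ and _s_ probe sets keeps the chosen probe sets of all 10 genes. Where the cause of a change is not named, the cause was not tested. In BL LRC against BL non-LRC, 1 of the 10 genes was called under median centring and with only the groups compared, and 0 to 1 when an array was left out (1 without GL 1 or GL 2). Median centring, which moved the median of all genes there from 0.05 to -0.20 log2 units, called 446 genes in place of 279. In SL LRC against SL non-LRC, 2 genes were called under quantile normalization, median centring and the replicate block, 0 with the array set as a term and with no mean-variance trend, and 0 to 2 when an array was left out. In SL against BL, 1 was called on the high-BioB arrays alone, where the contrast is SL LRC against BL LRC, 0 with no trend, 1 in SL non-LRC against BL non-LRC alone, and 5 to 6 when an array was left out. In GL against SL, 5 were called on the high-BioB arrays alone, where SL is SL LRC alone and Lfng was not called, and 2 to 5 when an array was left out. In GL against BL 5 to 10 were called when an array was left out, and 6 with no trend, without Notch2 (adjusted p = 0.0576), Jag1 (0.116) and Hes1 (0.105). The interaction stayed at 0 of the 10 in these settings. With a gene's probe sets averaged, the called gene in SL LRC against SL non-LRC was Lfng and not Jag2. With the replicate block Lfng in SL LRC against SL non-LRC (adjusted p = 0.0469) and Notch1 in GL against SL (0.0355) and BL (0.00447) gained a call, and no other call of the 10 changed. Whether arrays of equal number belong together across the layers, as the block assumes, was not tested.

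The values that changed sign were all short of the threshold. For BL LRC against BL non-LRC these were Nrarp at 0.0111 (quantile), 0.0132 (mean of probe sets), 0.0775 (high-BioB arrays) and 0.0695 (second probe set), and under median centring Notch2 at -0.0724 and Dll1 at -0.0667. For SL LRC against SL non-LRC these were Nrarp at -0.067 (median centring), -0.43 (array set term) and -0.0338 (second probe set), Jag1 at 0.0644 (mean of probe sets), 0.38 and 0.13 (other probe sets), Hes1 at -0.42 and Hey1 at 0.024 (array set term), and Notch1 at 0.0765 (second probe set). In the interaction, the mean of probe sets gave Notch3 -0.0041 and Jag1 0.27. The array set term gave Notch1 -0.62, Notch2 -0.092, Nrarp -0.39, Hes1 -0.39 and Hey1 1.56, and other probe sets gave Nrarp -0.10, Jag1 0.72 and 0.25, Notch3 -0.21 and Jag2 0.0939. In SL against BL, Jag1 was -0.0151 (mean of probe sets), -0.20 (high-BioB arrays, SL LRC against BL LRC), -0.0268 (within LRC, all arrays) and -0.14 (another probe set), and Notch1 was -0.10 (high-BioB arrays, SL LRC against BL LRC). In GL against SL, Notch2 was -0.11 (median centring), -0.0475 (array set term) and -0.0856 (high-BioB arrays). Leaving out 1 array moved some values across 0. In BL LRC against BL non-LRC, Notch1 ran between -0.42 and 0.0479, Jag1 between -0.26 and 0.0062, Nrarp between -0.29 and 0.18, and Hes1 between -0.28 and 0.23. In SL LRC against SL non-LRC, Notch1 ran between -0.18 and 0.021 and Nrarp between -0.12 and 0.27. In the interaction, Notch1 ran between -0.13 and 0.34, Notch3 between -0.0874 and 0.49, Lfng between -0.41 and 0.0726, Nrarp between -0.11 and 0.36, and Hey1 between -1.33 and 0.43. In SL against BL, Notch1 ran between -0.12 and 0.11 and Jag1 between -0.0379 and 0.11.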
